A study of Homo sapiens with 28 samples.

Results

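CCS1477, a small-molecule inhibitor of the bromodomains of p300 and CBP, was examined in HOXB13-depleted LNCaP cells. The comparison used 6 of the study's 28 RNA-seq libraries, 3 of shHOXB13 CCS1477 and 3 of shHOXB13 DMSO. They were taken by their treatment labels, and all genes of the expression tables were considered, those that rose as well as those that fell. LNCaP cells come from a human prostate carcinoma and respond to androgens, and *HOXB13* is a homeobox gene of the prostate lineage. All 6 libraries carried shHOXB13, which per the study's methods was 1 lentiviral hairpin, so that an effect particular to this hairpin cannot be told apart from the loss of HOXB13. Cells received 250 nM CCS1477 or the vehicle DMSO for 48 hours, and each group had 3 biological replicates. For comparison, 6 libraries of LNCaP cells with the control hairpin shCtrl had the same treatments, shCtrl DMSO and shCtrl CCS1477. A separate knockdown series, without drug, held 2 libraries each of shCtrl, shHOXB13 and shHOXB13+shp300/CBP, in which hairpins targeted the same pair of proteins. The question was how RNA levels in HOXB13-depleted cells changed when p300/CBP was inhibited.

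p300 and CBP are closely related acetyltransferases that transcription factors recruit to enhancers and promoters, where they acetylate histones. Their bromodomain reads acetylated lysines and helps to hold them on chromatin. In prostate cells they are known as coactivators at genes that respond to androgens.

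RNA levels were given as FPKM, that is, reads divided by gene length and by the library's mapped reads, which allows levels of different genes to be compared per length. By the steps in which FPKM values rise, the 6 libraries held 10680261 to 14427238 mapped reads, of which 78.3–82.8% lay in genes. *HOXB13* measured 28.4, 32.2 and 30.6 FPKM with DMSO and 30.2, 29.8 and 28.4 with CCS1477, means of 30.4 ± 1.95 (SD, n = 3) and 29.5 ± 0.904, against 142.2 FPKM in shCtrl DMSO. Luminal and prostate markers defined the cells: the lowest library had 189.7 FPKM of *KRT8*, 213.3 of *CDH1* and 145.9 of *FOXA1*, although *KRT19* was at most 0.763 FPKM. *TP63*, *DCN*, *PDGFRA* and *PTPRC*, which mark basal, stromal and blood cells, were at 0 in all 6 libraries. Among the markers of other cell types, *COL1A1* went from 2.55–2.81 to 4.86–5.52 FPKM with the drug, *CD68* from 5.15–7.26 to 10.8–11.5 and *SYP* from 0.754–1.35 to 1.73–2.17. The summed markers went from 2.55–2.81 to 4.92–5.55 FPKM for 5 fibroblast genes, from 5.27–7.31 to 10.8–11.5 for 4 immune genes, from 0.754–1.35 to 1.75–2.17 for 3 neuroendocrine genes, from 0.489–0.646 to 0.322–0.369 for 3 endothelial genes and from 0.0398–0.106 to 0.0374–0.118 for 3 basal genes, and their part in the results was not tested. RNA in bulk cultures cannot tell fewer cells of a kind from less RNA per cell.

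CCS1477 changed many genes in both directions, and the lowered genes had the higher starting levels. Of 15907 genes tested, 844 were lowered (5.31%) and 2363 were raised (14.9%) at an adjusted p under 0.05 (limma, Benjamini-Hochberg) and at least 1.5-fold. Lowered genes had a median of 8.64 FPKM with DMSO and 3.68 with CCS1477. Raised genes went from a median of 1.9 to 3.76 FPKM. The lowered genes together made up 12.9–13.5% of all FPKM of tested genes in the DMSO libraries and 5.83–5.91% in the CCS1477 libraries. The raised genes went the other way, from 4.73–4.97% to 8.96–9.11%. Calls sort genes by these same values, so the direction of both shares and part of the difference in starting levels follow from the sorting. At least a 4-fold change on the log2(FPKM + 0.1) scale was reached by 103 lowered and 65 raised genes. The 3 DMSO and 3 CCS1477 libraries did not overlap for 8827 of the genes tested (55.5%), in either direction.

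The balance between falls and rises depended on how libraries were scaled. On the deposited scale the median gene was 0.20 higher with CCS1477 (log2), and 26.3% of the calls were falls. When libraries were scaled by the median of their ratios to the average library, this shift became 0.01, with 1407 lowered and 1360 raised genes (50.8% falls). Log2 changes are therefore read below against the median of 0.20, and for gene lists the numbers raised and lowered in shHOXB13 cells are also given under the other scaling where they moved by 1.5 times or more or the leading direction turned.

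**Figure D1:**
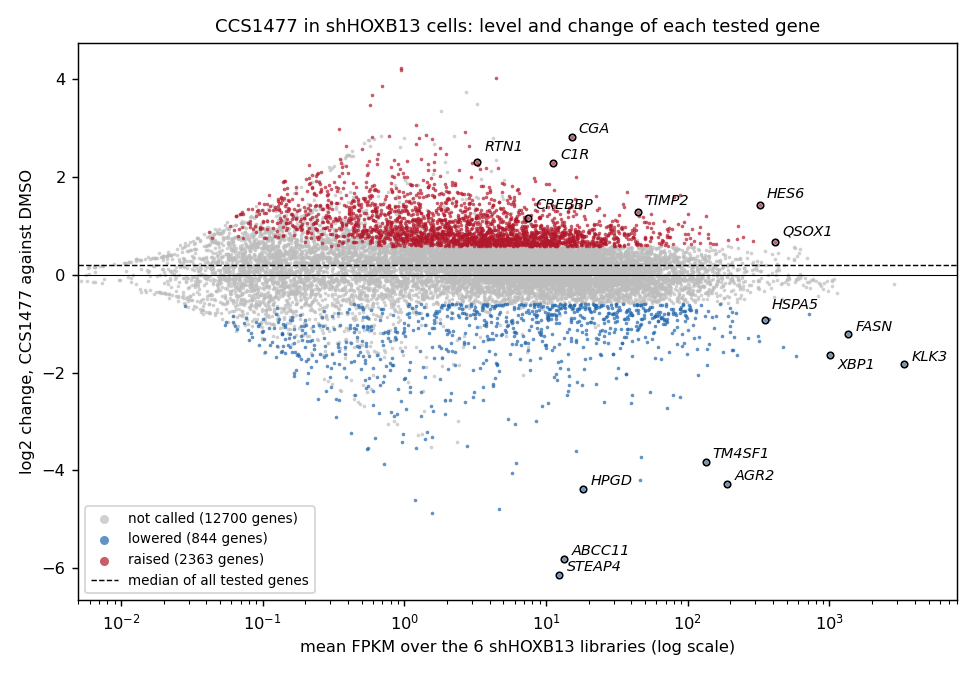
Log2 change with CCS1477 against mean FPKM over the 6 shHOXB13 libraries (log axis), 1 point a gene, blue for lowered, red for raised and grey for not called. The dashed line is the median of all tested genes at 0.20, and 49 genes with a mean under 0.005 FPKM were not drawn. Large falls such as *KLK3*, *XBP1* and *AGR2* lay at high levels, whereas most of the 2363 raised genes lay at low or middle levels.

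The deepest falls left genes at a small part of their level with DMSO. *STEAP4*, a metalloreductase, measured 24.4, 23.5 and 25.9 FPKM with DMSO and 0.197, 0.249 and 0.32 with CCS1477. *ABCC11*, an efflux transporter, measured 24.8, 26.8 and 27.6 FPKM and then 0.325, 0.348 and 0.456. The groups stood far apart for both genes, with log2 changes of −6.13 ± 0.23 (SE, adjusted p = 1.8e-08) and −5.81 ± 0.32 (adjusted p = 2.4e-07). *STEAP4* lies at chr7:88270892-88306894 and *ABCC11* at chr16:48165773-48247568, both on the minus strand (GRCh38). In shCtrl DMSO cells *STEAP4* and *ABCC11* were at 0.473 and 0.23 FPKM.

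*AGR2*, a protein disulfide isomerase of mucus-secreting cells at chr7:16791811-16833433, was abundant before treatment. *AGR2* measured 369.5, 347.5 and 363.0 FPKM with DMSO and 16.4, 18.8 and 20.8 with CCS1477, a log2 change of −4.27 ± 0.10 (adjusted p = 4.8e-10). *HPGD*, which inactivates prostaglandins, went from 38.1, 34.2 and 32.2 to 1.63, 1.55 and 1.56 FPKM (−4.38 ± 0.10, adjusted p = 4.3e-10). No DMSO library came near a treated one for either gene. *TM4SF1*, a surface protein of the tetraspanin kind, fell from a mean of 249.1 to 17.6 FPKM and *ST6GALNAC1*, a sialyltransferase, from 86.7 to 6.5. The cation channel gene *TRPM8* went from 10.9 to 0.566 FPKM and *THRSP*, a lipogenic regulator, from 11.6 to 0.713. The noncoding RNA genes *PCAT1* (87.2 to 4.69 FPKM) and *DSCAM-AS1* (9.01 to 0.265), *HGD* of tyrosine breakdown (29.9 to 2.44) and *TARP* (10.8 to 1.26) completed the 12 largest falls among genes of at least 5 FPKM. In all 12, adjusted p lay between 4.3e-10 and 6.2e-06.

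**Figure D2:**
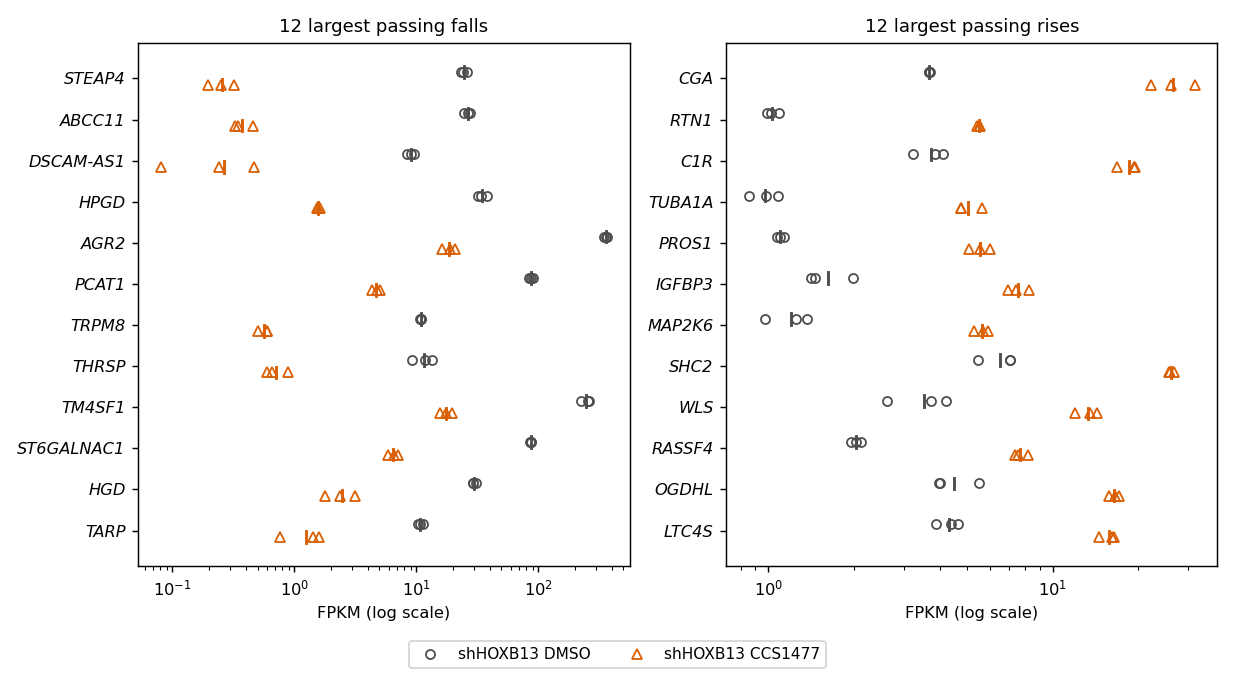
FPKM (log axis) of the 12 largest passing falls (left) and rises (right) among genes of at least 5 FPKM in either group. Circles are the 3 shHOXB13 DMSO libraries, triangles the 3 shHOXB13 CCS1477 libraries and short bars the group means. The 2 groups do not overlap for any of the genes, as the rule for the choice required. *STEAP4* has the widest gap and *CGA* the widest among the rises.

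The kallikreins, serine proteases that the prostate secretes under androgen control, fell together. Of 15 listed, 8 passed the filter on low values, and of these 6 were lowered and 0 raised at an adjusted p under 0.05, where 10.4% of all genes were lowered and 29.2% raised by that threshold. The list's median change was −1.29, against 0.20 for all genes. For this list and the others below with 0 members in a direction on the deposited scale, limma's unadjusted p under 0.05 also gave 0, with the exception of 1 lowered MHC class I gene. *KLK3*, the gene of prostate-specific antigen, went from 4691.9, 5444.2 and 5672.4 to 1421.6, 1537.6 and 1463.1 FPKM (−1.83 ± 0.14, adjusted p = 2.7e-06). *KLK2* went from 202.0 ± 8.72 to 71.1 ± 1.6 FPKM and *KLK4* from 150.6 ± 12.9 to 48.4 ± 0.147, with log2 changes of −1.51 and −1.63. The treated *KLK3* level was close to the 1483.5 FPKM of shCtrl DMSO, whereas treated *KLK4* fell below the 88.7 FPKM measured there.

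Androgen-responsive genes outside the kallikreins were lowered for 28 of the 38 members tested and raised for *CAMKK2* and *OPRK1*, with a list median of −0.94. *FKBP5*, a cochaperone of steroid receptors, measured 32.4, 28.5 and 27.8 FPKM and then 6.2, 5.75 and 6.27 (−2.26 ± 0.12, adjusted p = 1.9e-07). *TMPRSS2*, a surface protease, was lowered less, from 272.4 to 204.0 FPKM (−0.42 ± 0.10, adjusted p = 0.0051). *SLC45A3*, a prostate solute carrier, fell from 38.6 ± 0.81 to 16.8 ± 0.22 FPKM and *STEAP2* from 249.0 ± 10.5 to 138.4 ± 0.894.

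Of 17 lineage transcription factors tested, 10 were lowered and 4 were raised (median −0.40). *SPDEF*, an ETS factor of secretory epithelium, fell from 135.7 ± 7.83 to 51.8 ± 0.592 FPKM and *CREB3L4*, a membrane-bound factor of secretory cells, from 111.1 ± 2.87 to 36.8 ± 2.75. *GATA2* (−0.41), *ELF3* (−0.34) and *SOX9* (−0.48) were lowered by less than 1.5-fold. The pioneer factor *FOXA1* was raised slightly, from 153.3 to 185.2 FPKM (0.27 ± 0.07, adjusted p = 0.0083), a change close to the shift of the median gene. Under median-of-ratios scaling 2 of these factors were raised and 12 lowered. *KLF5* (0.81) and *PIAS1* (0.74) rose by more.

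Secretory luminal genes were lowered for 8 of 11 tested members, with a median of −1.14. *SPINK1*, a secreted trypsin inhibitor, had 19, 17 and 12 reads with DMSO and 0 in each CCS1477 library. Against a floor of 3 reads per library its level was at least 5.63-fold lower, and the list's median stayed at −1.14 with the gene at that bound. *MSMB*, a seminal plasma protein, fell from 5.2 ± 0.823 to 0.899 ± 0.473 FPKM. *TFF3*, a trefoil peptide, was the exception and rose from 1.83 ± 0.123 to 4.21 ± 0.772 FPKM (1.14 ± 0.16, adjusted p = 0.00015). Among 9 luminal keratins and markers, *KRT18* (269.1 to 139.6 FPKM), *DPP4* (18.8 to 4.55) and *CLDN4* were lowered and *EPCAM* was raised (0 raised and 4 lowered under median-of-ratios scaling). *CDH1*, the gene of E-cadherin, measured 213.3–227.0 FPKM with DMSO and 234.0–241.9 with CCS1477, a log2 change of 0.11 ± 0.09 that did not pass (adjusted p = 0.40) and became −0.10 under median-of-ratios scaling.

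Enzymes that attach glucuronic acid, listed under steroid glucuronidation, fell as a group. Of 9 tested members (17 listed), 8 were lowered and 0 raised, with a median of −1.52. *UGT2B11* measured 174.6, 165.7 and 176.3 FPKM with DMSO and 59.2, 57.7 and 62.6 with CCS1477. *UGT2B28* went from 58.8 ± 3.28 to 14.4 ± 1.16 FPKM and *UGT1A1* from 7.02 ± 1.09 to 1.42 ± 0.219. *UGT2B17* changed by −0.76 and *UGT2B15* by −0.85 (log2), and both passed. *UGT2B15*, *UGT2B17* and *UGT2B28* also belong to the androgen-responsive list. In shCtrl cells the same drug raised *UGT2B11* from 1.07 to 4.6 FPKM and *UGT2B28* from 0.649 to 1.54. UGT2B genes are near-identical copies and UGT1A genes share exons, so reads may have been split among them, and levels of single members are uncertain.

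Lipid genes did not move as a single block. In cholesterol synthesis, 11 of 22 enzymes were lowered and 2 raised (median −0.37), and 18 were lowered under median-of-ratios scaling. *FDFT1*, squalene synthase, measured 289.9, 312.7 and 308.8 FPKM and then 102.3, 103.1 and 108.7 (−1.54 ± 0.11, adjusted p = 1.3e-06). *HMGCS1*, which feeds the mevalonate pathway, fell from 50.0 ± 4.78 to 18.9 ± 1.02 FPKM. *SQLE*, squalene epoxidase, was 25.2 FPKM with DMSO and 22.3 with CCS1477, which did not pass (adjusted p = 0.097). *TM7SF2*, a sterol reductase, was raised from 509.6 ± 34.7 to 731.0 ± 37.6 FPKM.

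Fatty acid synthesis, elongation and desaturation had 7 of 27 genes lowered and 6 raised (median −0.04, 13 lowered and 5 raised under median-of-ratios scaling). The lowered genes included the core enzymes. *FASN*, fatty acid synthase, went from 1889.1, 2035.0 and 1783.3 to 817.6, 859.2 and 772.7 FPKM, *ACACA*, acetyl-CoA carboxylase, from 62.7 ± 2.41 to 31.4 ± 2.33, and *ACLY*, ATP citrate lyase, from 173.7 ± 11 to 103.2 ± 5.72. *ELOVL5*, an elongase, was lowered more (−1.53 ± 0.10, adjusted p = 1.1e-06) and *SCD*, the main desaturase, less (−0.44 ± 0.09, adjusted p = 0.0020). The raised genes were mostly isoforms of low level: *SCD5* went from 0.448, 1.02 and 0.804 FPKM to 4.71, 4.98 and 5.19 (2.62 ± 0.22, adjusted p = 4.8e-06), *ELOVL4* from 0.227 to 1.47 and *ACACB* from 0.729 to 1.87. Isoforms of desaturase, elongase and carboxylase thus moved in opposite directions.

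Among 21 regulators of SREBP, the transcription factor of lipid synthesis, and of lipoprotein uptake, 9 were raised and 7 lowered (2 raised and 7 lowered under median-of-ratios scaling). *SREBF2* fell from 79.3 ± 3.55 to 56.7 ± 2.77 FPKM (−0.48 ± 0.06, adjusted p = 0.00014), with *INSIG1* (−0.96) and *LPIN1* (−0.95) lowered too. *SREBF1* was raised, from 344.9, 391.6 and 375.0 to 440.5, 471.6 and 461.0 FPKM (0.31 ± 0.09, adjusted p = 0.018). That change is close to the shift of the median gene, 0.20. The acyl-CoA synthetases that activate fatty acids included large falls in *ACSL3* (489.1 to 260.9 FPKM) and *ACSL1* (457.7 to 179.8) and a rise in *ACSF2* (1.71 to 6.15), with 5 of 17 lowered and 6 raised (6 and 5 under median-of-ratios scaling). Fatty acid oxidation had 9 of 29 raised and 8 lowered, with a median of 0.01, whereas 7 were raised and 14 lowered under median-of-ratios scaling (median −0.20). *CPT1A*, the gate to mitochondrial oxidation, fell from 80.4 ± 5.78 to 45.2 ± 1.59 FPKM while its brain-type relative *CPT1C* rose from 1.58 ± 0.0841 to 4.48 ± 0.552.

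Chaperones of the endoplasmic reticulum and genes of the unfolded protein response were lowered across the list, 23 of 30 at an adjusted p under 0.05, with *DERL1* the 1 gene raised (median −0.57). *XBP1*, a transcription factor of this response, measured 1380.7, 1639.0 and 1588.4 FPKM with DMSO and 459.1, 512.8 and 507.1 with CCS1477 (−1.64 ± 0.13, adjusted p = 2.7e-06). *HSPA5*, the chaperone BiP, went from 435.4, 476.3 and 456.1 to 233.0, 242.9 and 244.2 FPKM (−0.92 ± 0.09, adjusted p = 1.3e-05). Treated and untreated libraries did not overlap for either gene, as for 55.5% of all tested genes. *HERPUD1*, of degradation at the endoplasmic reticulum, fell from 157.4 ± 12 to 63.9 ± 7.8 FPKM, *SDF2L1* from 51.6 ± 3.04 to 22.5 ± 1.21, *MANF* from 126.4 ± 11.9 to 54.4 ± 2.22 and the coat protein gene *SEC24D* from 16.9 ± 1.15 to 6.0 ± 0.07. *CALR*, calreticulin, was 1126.1 ± 81.5 FPKM with DMSO and 957.0 ± 35.3 with CCS1477, which did not pass (adjusted p = 0.090).

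The promoters of several of these genes hold short elements known to bind the factors of the unfolded protein response, and those of 4 lowered genes are printed to show where the elements lie. The elements searched were ERSE, which is CCAAT and CCACG with 9 bases of any kind between them, and ERSE-II, which is ATTGG and CCACG with 1 base between them, on both strands of the 250 bases before each gene's start (RefSeq, GRCh38.p14). Capitals mark the match, and sequences run 5′ to 3′ on the gene's strand.
HSPA5 promoter, chr9:125241344-125241593, minus strand: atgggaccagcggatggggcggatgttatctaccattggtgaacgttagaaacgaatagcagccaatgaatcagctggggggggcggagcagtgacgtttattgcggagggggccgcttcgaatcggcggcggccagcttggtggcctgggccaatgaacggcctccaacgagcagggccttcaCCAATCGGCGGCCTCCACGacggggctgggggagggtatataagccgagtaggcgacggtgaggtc
XBP1 promoter, chr22:28800570-28800819, minus strand: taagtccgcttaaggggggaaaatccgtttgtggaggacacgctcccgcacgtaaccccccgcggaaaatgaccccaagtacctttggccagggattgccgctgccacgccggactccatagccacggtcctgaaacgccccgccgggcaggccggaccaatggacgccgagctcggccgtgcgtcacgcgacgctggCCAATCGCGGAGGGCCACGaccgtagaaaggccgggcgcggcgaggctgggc
SDF2L1 promoter, chr22:21642052-21642301, plus strand: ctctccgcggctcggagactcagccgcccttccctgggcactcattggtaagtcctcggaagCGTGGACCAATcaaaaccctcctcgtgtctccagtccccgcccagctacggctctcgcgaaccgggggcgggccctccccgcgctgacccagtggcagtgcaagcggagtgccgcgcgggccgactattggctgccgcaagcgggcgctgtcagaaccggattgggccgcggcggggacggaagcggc
HERPUD1 promoter, chr16:56931892-56932141, plus strand: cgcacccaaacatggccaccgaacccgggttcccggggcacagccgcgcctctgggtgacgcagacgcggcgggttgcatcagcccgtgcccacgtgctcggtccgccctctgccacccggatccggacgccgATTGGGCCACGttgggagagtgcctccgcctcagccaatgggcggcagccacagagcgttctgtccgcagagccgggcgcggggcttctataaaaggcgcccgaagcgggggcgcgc
ERSE was matched in *HSPA5* and *XBP1*, 66 and 52 bases before the start, and ERSE-II in *SDF2L1* and *HERPUD1*, 188 and 117 bases before it. Of 26 listed genes with a promoter in the table, 10 held either element and 9 of these were lowered, *CALR* being the other, where 23 of the 30 in the whole list were lowered. Among all 35116 promoters, 26 (0.074%) held ERSE and 18 (0.0513%) held ERSE-II. A match describes the letters and is not evidence of binding.

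The ATF4 list, genes of amino acid supply that another branch of the stress response induces, was lowered for 11 of 30 members and raised for 4 (median −0.27, 19 lowered and 2 raised under median-of-ratios scaling). *SLC1A5*, a glutamine transporter, fell from 25 ± 1.35 to 11 ± 0.832 FPKM. *ATF4* itself measured 49.6 ± 5.13 and 41.8 ± 3.34 FPKM (adjusted p = 0.41) and *ASNS*, asparagine synthetase, 18.5 ± 1.72 and 15.9 ± 0.935 (adjusted p = 0.15). *SESN2* was raised, from 7.19 ± 0.534 to 13.3 ± 0.0812 FPKM (0.88 ± 0.15, adjusted p = 0.00065).

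**Figure D3:**
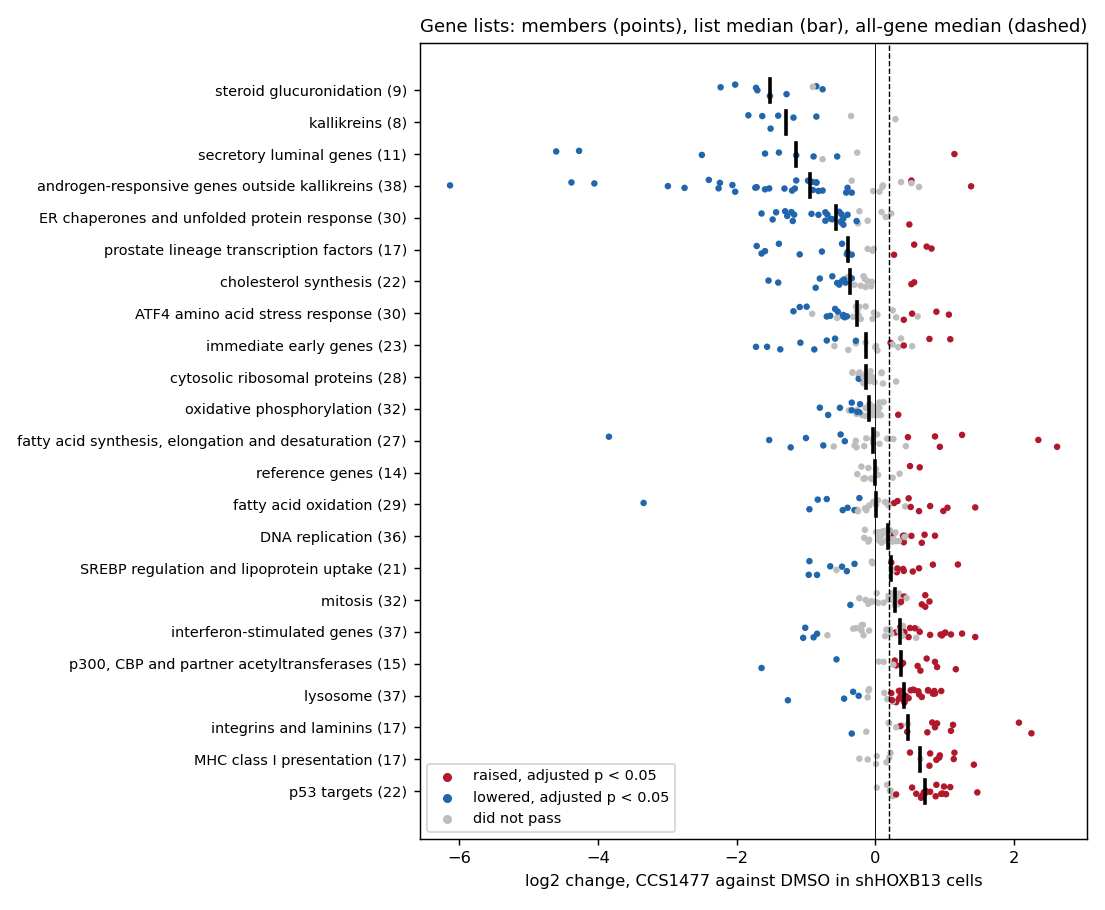
Log2 change with CCS1477 in shHOXB13 cells for the members of 23 gene lists, with the number tested in brackets, 1 point a gene, red and blue for those that passed at an adjusted p under 0.05. Black bars are list medians, the solid line is 0 and the dashed line the all-gene median of 0.20. Glucuronidation, kallikrein, secretory and androgen-responsive genes have the lowest medians and p53 targets the highest of those drawn, at 0.71.

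Among genes of at least 5 FPKM in either group, the 12 largest rises started from low levels, between 0.972 and 6.52 FPKM with DMSO. *CGA*, the common alpha subunit of the glycoprotein hormones at chr6:87085498-87095106, measured 3.69, 3.66 and 3.68 FPKM with DMSO and 22.1, 26.0 and 31.7 with CCS1477 (2.81 ± 0.36, adjusted p = 0.00010). *C1R*, a protease of the complement cascade at chr12:7080214-7092540, went from 3.23, 4.12 and 3.84 to 16.8, 19.4 and 19.5 FPKM (2.29 ± 0.12, adjusted p = 1.9e-07). Treated libraries were all above untreated ones, as the rule for the choice required. *RTN1*, a reticulon, rose from 1.03 to 5.49 FPKM, *PROS1*, the anticoagulant protein S, from 1.1 to 5.55 and *IGFBP3*, which binds insulin-like growth factors, from 1.62 to 7.55. *TUBA1A* rose from 0.972 to 5.05 FPKM, with the limit that alpha-tubulin genes are near-identical copies. *MAP2K6* (a kinase upstream of p38), *SHC2* (a signalling adaptor), *WLS* (needed for Wnt secretion), *RASSF4*, *OGDHL* (a mitochondrial dehydrogenase subunit) and *LTC4S* (leukotriene C4 synthase) rose by 1.85 to 2.15 on the log2 scale. Among abundant genes, *HES6*, a repressor of the HES family, went from 143.7, 209.2 and 176.4 to 453.7, 495.0 and 454.6 FPKM (1.42 ± 0.17, adjusted p = 5.3e-05) and *QSOX1*, a sulfhydryl oxidase, from 322.3 ± 21 to 508.2 ± 13.8.

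p53 targets had 17 of 22 members raised and 0 lowered (median 0.71, 16 raised under median-of-ratios scaling). *DDB2*, of DNA damage recognition, measured 5.01, 4.31 and 4.81 FPKM with DMSO and 13.2, 12.8 and 13.6 with CCS1477 (1.47 ± 0.10, adjusted p = 8.9e-07). *MDM2*, the ligase that degrades p53, rose from 14.3 ± 0.802 to 22.6 ± 0.881 FPKM and *RRM2B*, a ribonucleotide reductase subunit, from 18.7 ± 1.16 to 37.8 ± 1.88. Genes of cell death in the list rose as well, with *BAX* going from 8.26 ± 1.48 to 17.5 ± 2.4 FPKM, *FAS* from 3.61 ± 0.556 to 7.26 ± 0.841 and *BBC3* from 2.89 ± 0.219 to 5.73 ± 0.205. For each of these genes the 3 treated libraries lay above the 3 untreated ones, where 55.5% of all tested genes had groups apart in one direction or the other.

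MHC class I presentation genes, which display peptides to T cells, had 9 of 17 members raised and 0 lowered (median 0.65, 8 raised and 1 lowered under median-of-ratios scaling). *HLA-C* went from 25.7, 28.8 and 29.5 to 50.1, 54.1 and 54.8 FPKM (0.92 ± 0.10, adjusted p = 3.8e-05), *HLA-B* from 14.6 ± 1.71 to 27.8 ± 1.78 and *TAPBP*, the peptide loading factor tapasin, from 6.19 ± 0.4 to 11.4 ± 0.143. HLA genes are alike in sequence and differ between cells, so that single members are uncertain. Interferon-stimulated genes had 15 of 37 raised and 4 lowered (9 and 6 under median-of-ratios scaling), where 29.2% of all genes were raised and 10.4% lowered. *IFITM3*, an antiviral membrane protein with close copies in the genome, rose from 60.7 ± 6.47 to 120.7 ± 7.73 FPKM and *IFI6* from 28.2 ± 3.36 to 55 ± 4.68, whereas *ISG20*, an exonuclease, fell from 3.55 ± 0.541 to 1.86 ± 0.139 and *OASL* from 5.27 ± 0.616 to 2.91 ± 0.484.

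Lysosomal genes were raised for 27 of 37 tested members and lowered for 4 (median 0.42), but 14 were raised and 6 lowered under median-of-ratios scaling. *CTSB*, a cathepsin protease, measured 47.1, 51.4 and 52.5 FPKM and then 92.8, 97.7 and 100.7 (0.95 ± 0.10, adjusted p = 2.0e-05). *SMPD1*, acid sphingomyelinase, rose from 85.3 ± 4.54 to 154.3 ± 4.04 FPKM and *CTSA*, the protective cathepsin A, from 25.3 ± 1.35 to 45.7 ± 1.65. *ASAH1*, acid ceramidase, moved against the list and by more, from 438.3, 437.2 and 453.6 to 185.1, 184.9 and 185.7 FPKM (−1.26 ± 0.08, adjusted p = 5.5e-07). The core of the CLEAR element that lysosomal transcription factors bind, TCACGTGA, was in the same 250-base window of 5 of 23 listed genes, 4 of them raised (*CTSA*, *GAA*, *LAMP1*, *MCOLN1*) and 1 lowered (*ATP6V0D1*), and in 300 (0.854%) of all promoters. The promoter of *CTSA* is shown because it is the raised gene of these with the largest change, with the match in capitals.
CTSA promoter, chr20:45891085-45891334, plus strand: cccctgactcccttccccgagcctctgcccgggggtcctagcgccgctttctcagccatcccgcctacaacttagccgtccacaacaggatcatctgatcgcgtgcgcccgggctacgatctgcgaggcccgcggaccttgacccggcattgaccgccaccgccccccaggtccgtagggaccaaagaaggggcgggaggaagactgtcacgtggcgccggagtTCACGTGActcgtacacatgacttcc
The match starts 26 bases before this RefSeq start of *CTSA*. The printed window lies inside the gene's span in the GENCODE annotation, chr20:45890144-45898949, so this is not the gene's outermost start.

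Integrins and laminins, receptors and proteins of the basement membrane, had 10 of 17 members raised and *LAMC1* lowered (median 0.47, 8 raised and 2 lowered under median-of-ratios scaling). *ITGB1*, the common beta chain, went from 95.5, 102.4 and 103.7 to 170.1, 177.9 and 183.1 FPKM (0.82 ± 0.09, adjusted p = 2.7e-05). *LAMA5* rose from 19.3 ± 1.1 to 42.1 ± 0.843 FPKM, *LAMB1* from 0.444 ± 0.0998 to 2.47 ± 0.103 and *ITGB4* from 0.313 ± 0.0487 to 1.63 ± 0.138. Of 4 tested inhibitors of matrix metalloproteinases, 2 were raised and 0 lowered: *TIMP2* went from 26.1 ± 2.48 to 63.1 ± 3.57 FPKM (1.27 ± 0.09, adjusted p = 1.6e-06) and *RECK*, a membrane-anchored inhibitor, from 1.06 ± 0.069 to 2.7 ± 0.265.

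Matrix metalloproteinases, which break down matrix proteins, had 11 of 21 listed members above the filter on low values, with 4 raised and 0 lowered (median 0.23). *MMP12*, macrophage elastase, measured 3.42, 1.95 and 3.36 FPKM with DMSO and 9.01, 9.47 and 10.9 with CCS1477 (1.75 ± 0.45, adjusted p = 0.0087), and *MMP11* rose from 0.954 ± 0.303 to 2.39 ± 0.116 FPKM. The collagenase *MMP13* was 7.18, 6.85 and 7.84 FPKM without and 7.44, 9.02 and 8.64 with the drug (0.19 ± 0.43, adjusted p = 0.76), and the sign turned under median-of-ratios scaling (−0.01). *MMP10*, a stromelysin, measured 2.71, 2.98 and 3.63 and then 2.17, 2.75 and 2.4 FPKM (adjusted p = 0.24), and *MMP7* was at 0.154–0.753 FPKM in all 6 libraries (adjusted p = 0.27). By RT-qPCR, the study reported that CCS1477 strongly reduced the metalloproteinase genes raised in HOXB13-depleted LNCaP cells. The difference from the RNA-seq values was not tested. Of 15 regulators of the epithelial-mesenchymal transition and cadherins, 3 were raised and 4 lowered, where 29.2% of all genes were raised and 10.4% lowered. Under median-of-ratios scaling 2 were raised and 6 lowered, and the median turned from 0.11 to −0.10. *SNAI2*, a repressor of E-cadherin, fell from 1.1 ± 0.0838 to 0.185 ± 0.0559 FPKM (−2.09 ± 0.24, adjusted p = 5.3e-05) and *SNAI1* from 0.585 ± 0.0712 to 0.235 ± 0.0278. Their relative *SNAI3* rose from 0.652 ± 0.0455 to 1.3 ± 0.219 FPKM. *TWIST1*, a further factor of the mesenchymal program, rose from 0.959 ± 0.0694 to 2.89 ± 0.408, and *ZEB1* stayed at or under 0.089 FPKM and was not tested. *VIM*, vimentin, was 1.39 ± 0.188 and 1.73 ± 0.4 FPKM (adjusted p = 0.23).

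Acetyltransferases and their partners rose for 10 of 15 members (5 under median-of-ratios scaling) and fell for 2. Of the CITED genes, which encode p300/CBP-binding regulators, *CITED4* was among the raised and *CITED1* and *CITED2* were the lowered. *CREBBP*, the gene of CBP, went from 4.81, 4.51 and 4.34 to 11.2, 10.4 and 9.36 FPKM (1.16 ± 0.10, adjusted p = 5.8e-06) and *EP300* from 9.9 ± 1.02 to 16.6 ± 1.65. The BET family also reads acetylated lysine. Of 10 tested BET genes and regulators of the elongation kinase P-TEFb, 4 were raised and 0 lowered, where 29.2% of all genes were raised. The raised genes were *BRD2*, *BRD3*, *HEXIM1* and *LARP7* (3 raised under median-of-ratios scaling). *BRD2* rose from 6.94 ± 0.461 to 15.2 ± 0.736 FPKM (1.12 ± 0.07, adjusted p = 9.3e-07) and *BRD3* from 8.08 ± 0.482 to 11.6 ± 0.473. *HEXIM1*, which holds the elongation kinase P-TEFb inactive, rose from 23.3 ± 1.6 to 45.9 ± 3.39 FPKM.

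*MYC*, a growth-promoting transcription factor, measured 38.2, 37.6 and 31.7 FPKM with DMSO and 22.2, 21.8 and 22.8 with CCS1477 (−0.68 ± 0.09, adjusted p = 0.00010). Of 28 genes of ribosome biogenesis, 3 were lowered and 1 raised, and of 28 cytosolic ribosomal proteins 1 was lowered and 0 raised, with medians of −0.10 and −0.13 that both lie under the all-gene median (13 and 11 lowered and 0 raised under median-of-ratios scaling). Oxidative phosphorylation had 8 of 32 lowered and 1 raised, and 18 lowered and 0 raised under that scaling. DNA replication had 8 of 36 raised and 0 lowered (median 0.18), against 2 raised and 2 lowered under median-of-ratios scaling (median −0.03), and mitosis 6 of 32 raised and 1 lowered (median 0.28, 4 raised under that scaling). *TOP2A*, topoisomerase II alpha, went from 2.08 ± 0.211 to 3.49 ± 0.519 FPKM and stayed far below the 29.6 FPKM of shCtrl DMSO. The proliferation marker *MKI67* was 1.79 ± 0.0222 and 2.19 ± 0.207 FPKM (adjusted p = 0.16). Of 12 CDK inhibitors and D-type cyclins, *CDKN1C* (0.624 to 1.75 FPKM) and *CDKN2A* (3.72 to 8.33) were among 6 raised, and *CDKN1B*, encoding p27, fell from 62.3 ± 2.29 to 37.1 ± 0.526 FPKM as 1 of 2 lowered (4 raised and 3 lowered under median-of-ratios scaling).

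The drug effect was then set against that in cells with the control hairpin, to ask which changes differed between the hairpins. In shCtrl cells, CCS1477 lowered 884 genes (5.56%) and raised 1047 (6.58%) by the same thresholds. Of the 844 genes lowered in shHOXB13 cells, 311 (36.8%, or 35.2% of the shCtrl list) were lowered in shCtrl cells too and 9 were raised there. Of the 2363 raised, 662 (28%, or 63.2% of the shCtrl list) were raised and 28 lowered. Across the 15907 genes the log2 changes in both backgrounds had a Pearson r of 0.43 and a Spearman rho of 0.45, over genes that are not independent and that share the libraries of each contrast. The difference itself, the interaction of drug and hairpin, was lower in shHOXB13 cells for 390 genes (2.45%) and higher for 1068 (6.71%), and these counts became 675 and 703 under median-of-ratios scaling.

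**Figure D4:**
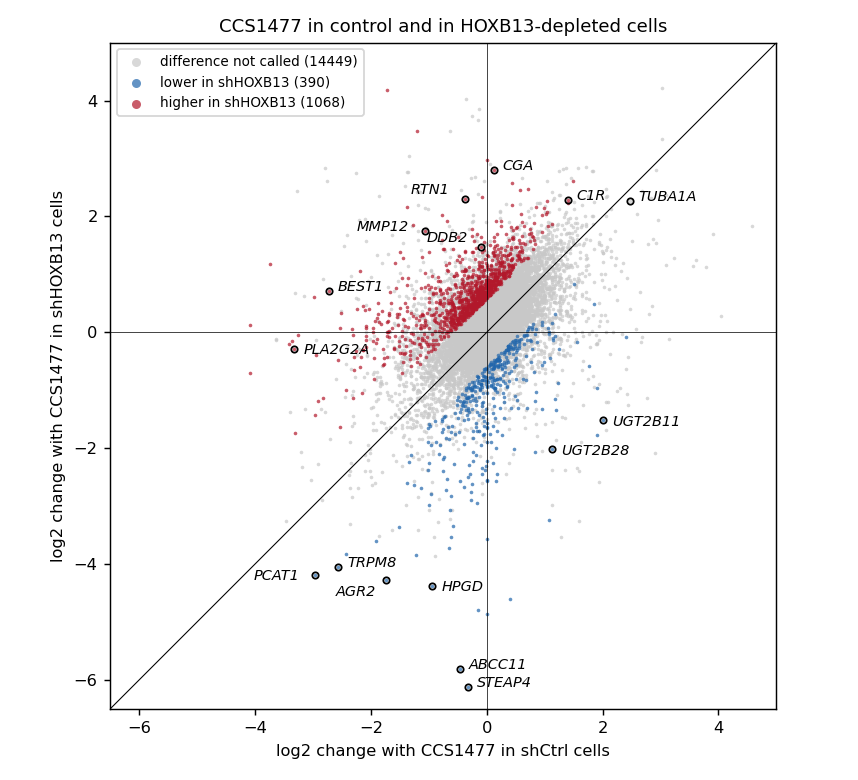
Log2 change with CCS1477 in shHOXB13 cells against that in shCtrl cells, 1 point a gene, with the line of equal change. Blue points (390) had a lower and red points (1068) a higher change in shHOXB13 cells by the interaction test, and grey points did not pass it. *STEAP4* and *ABCC11* fell in shHOXB13 cells and lie near 0 on the horizontal axis, *UGT2B11* and *UGT2B28* lie in the quadrant of opposite directions, and *TUBA1A* lies near the line.

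The largest negative differences were those of *STEAP4*, a member of the androgen-responsive list, and *ABCC11*, which is not in it. *STEAP4* (interaction −5.80 ± 0.32, adjusted p = 1.8e-06) and *ABCC11* (−5.34 ± 0.45, adjusted p = 4.5e-05) had log2 changes of −0.33 and −0.47 in shCtrl cells, neither past the test there. Both started under 0.5 FPKM in shCtrl DMSO, which left little room for a fall on the log2(FPKM + 0.1) scale. Of the 38 androgen-responsive genes, 18 had a lower drug effect in shHOXB13 cells and 2 a higher one. The kallikreins counted 4 of 8, glucuronidation 5 of 9, cholesterol synthesis 6 of 22 and the endoplasmic reticulum list 7 of 30 with a lower effect. *HSPA5* was 203.8 FPKM in shCtrl DMSO and 213.2 in shCtrl CCS1477 (interaction −1.0 ± 0.13, adjusted p = 0.00066), whereas *XBP1* fell in shCtrl cells too, from 252.7 to 98.6 FPKM, with an interaction of −0.27 that did not pass (adjusted p = 0.36).

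The p53 and ATF4 lists differed the other way. The p53 list had 14 of 22 members with a higher drug effect in shHOXB13 cells and 0 with a lower one (1 at an unadjusted p under 0.05), and in shCtrl cells 4 were raised and 5 lowered (median 0.03). *DDB2* was 17.4 FPKM in shCtrl DMSO and 16.3 in shCtrl CCS1477 (interaction 1.57 ± 0.14, adjusted p = 4.8e-05). The ATF4 list had 16 of 30 with a higher effect and 0 with a lower one (1 at an unadjusted p under 0.05). In shCtrl cells, where 9.91% of all genes were lowered and 15.4% raised at an adjusted p under 0.05, 26 of 30 members were lowered (median −1.16), among them *TRIB3* (−2.29) and *ASNS* (−1.17), against 11 of 30 in shHOXB13 cells. *MMP12* (interaction 2.81 ± 0.64, adjusted p = 0.015) and *MMP10* (1.91 ± 0.30, adjusted p = 0.0022) had higher effects in shHOXB13 cells, and *MMP10* went from 1.06 to 0.146 FPKM with the drug in shCtrl cells. *BEST1* and *PLA2G2A*, with 9.01 and 7.86 FPKM in shCtrl DMSO, fell with the drug there and were under 1 FPKM in all 6 shHOXB13 libraries. *C1R*, *PROS1* and *IGFBP3* rose in both backgrounds and by more in shHOXB13 cells, with interactions of 0.89, 0.82 and 1.32.

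Hairpins against p300 and CBP addressed the same proteins in HOXB13-depleted cells, with no library shared. *HOXB13* itself was lowered by shp300/CBP there, from 11.3 to 6.59 FPKM (−0.80 ± 0.17, limma adjusted p = 0.0051). With the drug it was 30.4 and 29.5 FPKM (−0.04), so the 2 contrasts also differ in the level of *HOXB13*. The part of this in the results below was not tested. In shHOXB13 cells, shp300/CBP lowered 2321 of 15751 genes tested in both series (14.7%) and raised 1451 (9.21%). The share of mapped reads in genes was 61.5% and 52.6% for shHOXB13+shp300/CBP, 68.8% and 66.3% for shHOXB13 and 74.3% and 72.2% for shCtrl. FPKM divides by mapped reads, and the knockdown series was not rescaled. How far this moved its balance of falls and rises was not tested. CCS1477 lowered 449 (19.3%) of the genes that the hairpins lowered, where it lowered 5.3% of all 15751, and it raised 75 of them. It raised 576 (39.7%) of the genes that the hairpins raised, where it raised 15% of all, and lowered 8. Seen from the drug, 53.8% of its 835 lowered genes and 24.4% of its 2356 raised genes had the same call with the hairpins. The median drug change was −0.15 among hairpin-lowered, 0.58 among hairpin-raised and 0.22 among the other genes. Across genes, the log2 changes of drug and hairpins had a Pearson r of 0.38 and a Spearman rho of 0.40.

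**Figure D5:**
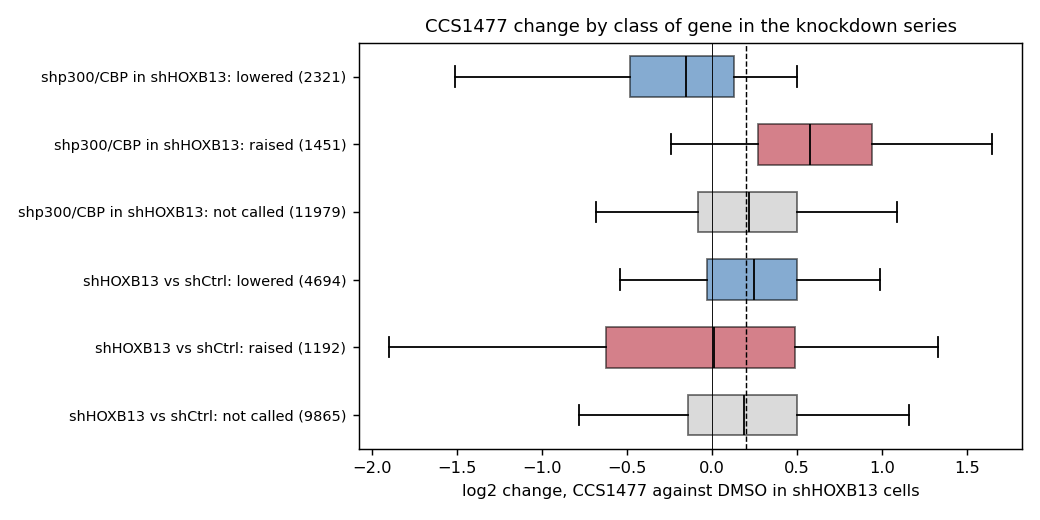
Log2 change with CCS1477 in shHOXB13 cells for genes classed in the knockdown series, by shp300/CBP in shHOXB13 cells (top 3 boxes) and by shHOXB13 against shCtrl (bottom 3), with numbers of genes in brackets. Boxes span the quartiles with the median as a line, whiskers the 5th to 95th percentile, the solid line is 0 and the dashed line the all-gene median. Genes lowered by the hairpins sit below the dashed line and genes raised by them above it, with medians of −0.15 and 0.58.

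Members of the lists differed in how drug and hairpins compared. The androgen-responsive list was lowered at least 1.5-fold by the hairpins for 24 of 38 members (median −1.19) and the endoplasmic reticulum list for 18 of 30 (−0.82), both also low with the drug. *AGR2* changed by −3.62 with the hairpins and −4.27 with the drug, *ST6GALNAC1* by −4.22 and −3.72 and *KLK3* by −2.22 and −1.83. *UGT2B28* and *UGT2B11* changed by −0.53 and −0.48 with the hairpins, neither past the test, and by −2.02 and −1.52 with the drug. Interferon-stimulated genes were raised at least 1.5-fold by the hairpins for 27 of 37 (median 1.53), beside the drug's median of 0.36. *ASAH1* (−2.35 and −1.26) and *ACSL3* (−1.90 and −0.91) were lowered by both. Of 11 metalloproteinases the hairpins lowered 3 and raised 3 at least 1.5-fold. *MMP10* (−0.89) and *MMP13* (−0.97) were lowered by them, and *MMP12* changed by −1.20, which did not pass, against 1.75 with the drug. These 3 genes started at 40.6, 50.1 and 60.0 FPKM in shHOXB13 of the knockdown series, against 3.11, 7.29 and 2.91 in shHOXB13 DMSO. *CGA* changed by −1.05 with the hairpins (adjusted p = 0.15) and by 2.81 with the drug. Its means in the knockdown series, 0.204 FPKM in shHOXB13 and 0.0505 in shHOXB13+shp300/CBP, lay near the pseudocount of 0.1. In shHOXB13 DMSO it was at 3.68 FPKM. *EP300* and *CREBBP*, the targets of the hairpins, changed by −0.41 and −0.27 with them, neither past the test. These are RNA values from 2 libraries per group. The study assessed the knockdown of p300 and CBP on the proteins, by western blot. Differences between drug and hairpins were not tested, since the series were made apart, with 2 libraries per group in the knockdown series.

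Genes that HOXB13 depletion induced in the knockdown series had the highest share of drug-lowered genes among the 3 classes. Their share of drug-raised genes was also the highest. Among 1192 induced genes (7.57% of 15751), CCS1477 lowered 271 (22.7%) and raised 221 (18.5%), with a median change of 0.01. Among 9865 genes not called by HOXB13 depletion the drug lowered 402 (4.08%) and raised 1351 (13.7%). Among 4694 that depletion lowered (29.8%) it lowered 162 (3.45%) and raised 784 (16.7%). The induced class thus held 32.5% of the drug-lowered genes. *TM4SF1* rose by 6.55 with HOXB13 depletion there and fell by 3.82 with CCS1477. *RTN1* went the other way, with a change of −3.61 with depletion and 2.30 with the drug.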

How the data were processed

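RNA-seq libraries of LNCaP cells were sequenced from polyadenylated RNA, and the authors deposited FPKM values per gene and library, without pooling. Per the study's methods, reads were aligned to GRCh38 with STAR 2.6.0, counted per gene without strand, and divided by gene length and mapped reads, so reads of overlapping or antisense genes cannot be told apart. All 475360 values above 0 in the 28 libraries came within 0.05 of a whole read, which gave the depth.

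Of 26475 listed genes, those with at least 0.1 FPKM in 3 of the 12 CCS1477-series libraries were tested (15907), as log2(FPKM + 0.1) with limma 3.58.1 in R 4.3.3 using a mean-dependent prior. The fold changes understate changes of low genes. All 4 groups shared 1 fit, with contrasts for the drug in each hairpin and their interaction. The knockdown series had its own fit (17678 genes, at least 0.1 FPKM in 2 libraries). P-values were adjusted by Benjamini-Hochberg over all genes tested. Genes were called at an adjusted p under 0.05 and at least 1.5-fold, and list members at an adjusted p under 0.05.

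The comparison, the gene lists and the genes named were chosen with earlier results of these data known. The rule named the genes of the study's question, the 12 largest passing rises and falls among genes of at least 5 FPKM whose groups do not overlap, the 8 most abundant passing genes each way, up to 5 members per list by p, and the 8 largest interactions each way. Other list members were named after their values were seen. Results for a few genes are not reported here. Libraries with 1 number in both groups did not deviate together (r of −0.02, −0.11 and 0.03 over 11813 genes), so they were not paired. Code was tested on simulated data. Promoters came from RefSeq (GRCh38.p14) and gene positions from the GENCODE annotation. Alternatives were another pseudocount, filters, scaling, samples, priors and leaving out each library.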

Additional observations from a re-analysis of the deposited data

Results flagged for a closer look

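The results here differed between shHOXB13 and shCtrl cells by the interaction of drug and hairpin (limma on log2(FPKM + 0.1), Benjamini-Hochberg adjusted p under 0.05 and at least 1.5-fold), with values as the log2 effect of CCS1477 in shHOXB13 cells minus that in shCtrl cells and 3 libraries per group. The drug effect was lower in shHOXB13 cells for 390 genes and higher for 1068.

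Genes with the lower effect in shHOXB13 cells were led by *STEAP4* (−5.80), *ABCC11* (−5.34), *DSCAM-AS1* (−4.65), *UGT2B11* (−3.53), *HPGD* (−3.44), *UGT2B28* (−3.15) and *ST6GALNAC1* (−3.06). In shCtrl DMSO, *STEAP4*, *ABCC11* and *DSCAM-AS1* were at 0.473, 0.23 and 0.0441 FPKM, the last under the pseudocount of 0.1, so a fall there had little or no room on this scale. *SERHL2* differed by −2.73, *THRSP* by −2.61, *AGR2* by −2.53, *TARP* by −2.43, *HGD* by −1.68 and *TRPM8* by −1.49. Smaller differences were measured for *TM4SF1* (−1.39), *SPON2* (−1.39), *PCAT1* (−1.23), *KLK3* (−1.13), *FASN* (−1.13), *ACSL3* (−1.13) and *HSPA5* (−1.0).

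Genes with the higher effect in shHOXB13 cells were *BEST1* (3.44), *PLA2G2A* (3.05), *DUSP27* (2.61), *OR51E1* (2.55) and *FAM65B* (2.39). These 5 were under 1 FPKM on average in both shHOXB13 groups, which left them likewise little room to fall there. *MMP12* differed by 2.81, *CGA* by 2.69, *RTN1* by 2.68 and *MMP10* by 1.91. Genes that rose with the drug in shHOXB13 cells by more than in shCtrl cells were *IGFBP3* (1.32), *WLS* (1.30), *MAP2K6* (1.17), *HES6* (1.11), *C1R* (0.89), *PROS1* (0.82) and *CREBBP* (0.75).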

How the results depend on the processing

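Among these alternatives, the falls called in shHOXB13 cells depended most on scaling and the rises most on the pseudocount: median-of-ratios scaling gave 1407 lowered and 1360 raised genes, with all 844 of the main falls among the 1407, and 675 lower and 703 higher interactions. A pseudocount of 1 gave 1269 raised and 584 lowered genes. Counts stayed within 1.5 times the main ones without a filter (854 lowered, 2350 raised), with a filter at 1 FPKM (693 and 1992), with equal FPKM sums (785 and 2654), with the 6 libraries alone (913 and 2484) and with a constant prior (850 and 2426). limma voom on recovered reads, chosen after seeing the data, called 857 and 2448, of which 811 and 2288 were shared with the main calls. Leaving out each library in turn gave 764 to 848 lowered and 2107 to 2356 raised genes, and 310 to 423 lower and 767 to 1136 higher interactions. With the replicate number as a block, an unpaired design by the labels, the fit called 845 lowered and 2378 raised genes and 377 and 1031 interactions.

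Genes named here whose sign turned did not pass in either setting. Under median-of-ratios scaling these were *MMP13* (−0.01), *CDH1* (−0.10) and *DUSP27* (−0.10). Leaving out each library in turn gave *KRT14* −0.35 to 0.30, *CLDN5* −0.29 to 0.06, *PLA2G2A* −0.57 to 0.08 and *DUSP27* −0.04 to 0.20. Of the genes chosen by rule, 213 kept direction and call under median-of-ratios scaling, 27 no longer passed and 12 newly passed. The cause of these differences was not tested. Levels of a few reads, as for *KRT14* or *SPINK1*, are limited by depth.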

Other observations

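Polyamine metabolism, which supplies spermidine and spermine and is very active in prostate, had 4 of 11 members lowered and 4 raised in shHOXB13 cells with CCS1477 (median 0.21, 0 raised and 5 lowered under median-of-ratios scaling). *AMD1*, which makes the aminopropyl donor for spermidine and spermine, measured 283.8, 263.0 and 247.1 FPKM with DMSO and 93.1, 87.2 and 84.8 with CCS1477 (−1.58 ± 0.10, limma adjusted p = 5.5e-07). *SAT1*, the acetylase of polyamine breakdown, went from 920.6 ± 36.2 to 523.7 ± 16.3 FPKM and *SRM*, spermidine synthase, from 138.5 ± 18.5 to 97.6 ± 3.39. Immediate early genes were lowered for 8 of 23 and raised for 4 (10 and 1 under median-of-ratios scaling): *NR4A1*, a nuclear receptor, fell from 10.1 ± 0.662 to 3.01 ± 0.414 FPKM and *KLF4* from 1.49 ± 0.24 to 0.443 ± 0.104, whereas *JUN* rose from 32.3 ± 0.644 to 68.5 ± 2.8.

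Among ERBB receptors and ligands, 3 of 11 were lowered and 4 raised (5 and 1 under median-of-ratios scaling). *EGF* fell from 8.23 ± 0.235 to 3.58 ± 0.386 FPKM and *HBEGF* from 5.93 ± 0.693 to 3.33 ± 0.18, while betacellulin, *BTC*, rose from 0.0693, 0.0708 and 0.0653 to 1.36, 0.86 and 1.11 FPKM (2.82 ± 0.36, limma adjusted p = 9.5e-05). IGF receptors and binding proteins had 3 of 8 raised, among them *IRS1* and *INSR*, and *IRS2* lowered (3 raised and 2 lowered under that scaling). ABC transporters had 7 of 24 raised and 5 lowered (median 0.09), against 3 raised and 9 lowered under median-of-ratios scaling (median −0.10). *ABCA7*, a lipid transporter, rose from 17.9 ± 1.45 to 35.2 ± 1.47 FPKM and *ABCC4*, an efflux pump, fell from 47.3 ± 2.57 to 25.2 ± 0.902. Triglyceride and droplet genes had 6 of 26 raised and 3 lowered (median 0.14, but 2 raised, 5 lowered and a median of −0.06 under that scaling), with *MGLL*, monoglyceride lipase, falling from 15.3 ± 1.13 to 6.59 ± 0.834 FPKM and *PLIN4*, a droplet coat protein, rising from 0.152 ± 0.0191 to 0.937 ± 0.0683.

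HDAC3 and its NCoR corepressor partners had 4 of 8 raised and 1 lowered (1 and 1 under median-of-ratios scaling), *HDAC3* going from 22.1 ± 2.92 to 31.1 ± 0.663 FPKM. NF-kB factors and targets had 4 of 19 raised and 3 lowered, histone genes 5 of 37 raised and 3 lowered, prostaglandin metabolism 2 of 12 each way and the MYC network 4 of 13 raised and 3 lowered. Under median-of-ratios scaling the medians of these last 4 lists turned negative, with 2 raised and 3 lowered for NF-kB, 0 and 3 for histone genes, 1 and 2 for prostaglandin metabolism and 2 and 3 for the MYC network. Of 14 reference genes, *B2M* and *GUSB* were raised and 0 lowered (median −0.01), against 1 raised and 6 lowered under that scaling.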
